A study of Mus musculus with 6 samples.

Results

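Il21, Il2 and the receptor gene Il21r were followed in activated CD4 T cells that lack the microRNA miR-155. The genes were taken by symbol from the platform annotation, which gave 3 probe sets, 1 per gene, of 22690 on the array. All 3 were among the 9295 genes tested. They were picked with the difference between the genotypes already known, so that difference is given for each as a description, without a test. The tested cells came from miR-155 KO mice (3 arrays) and were set against cells from WT mice (3 arrays), all of strain C57BL/6, with each array assigned to its own mouse by the series description. CD4+ T cells of both genotypes were taken from spleen and lymph nodes and activated in culture over 3 days by CD3 and CD28 antibodies (1 µg/mL), and every culture, KO and WT alike, received interleukin 2 (IL-2) at 20 U/mL. The values measure transcripts of the cells' own genes and not the IL-2 protein that was added. Age, sex and the deleted part of the locus are not given in the labels used here.

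IL-2 is the growth factor that activated T cells make for themselves and their neighbours, and it signals through receptor chains that switch on the transcription factor STAT5. IL-21 is a related cytokine of helper T cells, best known for helping B cells form germinal centres, and it signals through IL-21R and the common gamma chain, mainly to STAT3. The Il2 and Il21 genes lie side by side, with no protein-coding gene between them in RefSeq of assembly GRCm38.p6, while Il21r lies on chromosome 7 next to Il4ra, which encodes a chain of the IL-4 receptor. Transcription of both cytokine genes in T cells depends on the factor NFAT, which the T cell receptor activates through calcium.

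The microRNA that the KO cells lack is shown first, since it is what separates the groups. Its mature sequence is given as RefSeq has it (GRCm38.p6, chr16:84714143-84714165, plus strand), with the seed, bases 2 to 8, in capitals.
mmu-miR-155-5p: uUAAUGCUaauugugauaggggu

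The 250 bases before the starts of Il2 (chr3:37125955-37126204) and Il21 (chr3:37232637-37232886), both on the minus strand of GRCm38.p6 and taken from RefSeq, are shown because these neighbouring genes stood at opposite ends of the comparison. Capitals mark matches on either strand to the NFAT core GGAAA and to the TATA box TATAAA, and the matches did not overlap each other.
Il2 promoter: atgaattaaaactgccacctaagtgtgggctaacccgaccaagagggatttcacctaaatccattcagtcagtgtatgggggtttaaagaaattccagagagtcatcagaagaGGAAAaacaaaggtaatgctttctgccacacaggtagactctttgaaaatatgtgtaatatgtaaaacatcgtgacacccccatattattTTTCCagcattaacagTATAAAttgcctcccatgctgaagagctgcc
Il21 promoter: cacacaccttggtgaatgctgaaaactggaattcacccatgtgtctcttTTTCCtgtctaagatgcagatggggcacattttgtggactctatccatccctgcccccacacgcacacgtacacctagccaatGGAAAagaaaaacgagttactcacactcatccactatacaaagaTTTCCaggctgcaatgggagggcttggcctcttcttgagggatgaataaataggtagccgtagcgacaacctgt
The Il2 window held 2 NFAT cores, their first bases 137 and 47 bases before the start, and a TATA box that began 31 bases before it. The Il21 window held 3 NFAT cores, beginning 201, 118 and 74 bases before the start, and no TATAAA. The core is short, and 55.6% of 32851 promoter windows of this length held at least 1. At least 2 were found in 21.4% of windows and at least 3 in 6.39%, and 12.4% held TATAAA. The AP-1 site TGANTCA, present in 6.75% of windows, was in none of the windows of Il2, Il21 and Il21r, and the Il21r window held no NFAT core. These matches describe letters and not binding.

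The arrays were checked before the genes were compared. Mir155hg, the host transcript of miR-155, measured 3.51, 3.89 and 4.45 on KO replicates 1 to 3 and 7.69, 6.59 and 8.21 on WT replicates 1 to 3 (log2), so every array lay on the side of its label. The CD4 T cell markers were bright, with Cd3d at 13.37 in KO and 13.13 in WT and Cd4 at 9.09 in KO and 9.04 in WT. Both replicate 1 arrays carried Xist (13.35 in KO, 13.08 in WT) with Eif2s3y, a Y-linked gene, at 3.50 in KO and 3.44 in WT, both replicate 2 arrays carried Eif2s3y (10.41 in KO, 10.51 in WT) with Xist at 5.94 in KO and 5.66 in WT, and both replicate 3 arrays carried them together, at 12.59 and 10.05 in KO and at 12.64 and 10.21 in WT. Whether each array holds 1 mouse is not certain for replicate 3, and values without those arrays are given below. The number of arrays limits the precision of all values.

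Il21 was higher in KO. It measured 10.49, 10.63 and 10.31 on the KO arrays, against 7.66, 8.15 and 8.92 on the WT arrays (log2). The KO arrays lay close together, all of them above every WT array, and the lowest KO array was 1.39 above the highest WT array. The means were 10.48 ± 0.16 in KO and 8.24 ± 0.64 in WT (SD, n = 3 each), a difference of 2.24 ± 0.31 (SE) on the log2 scale, or 4.71-fold. Of the 9295 genes, 3 had a larger positive difference, and 9 (0.0968%) had a difference of at least 2 in this direction.

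Il2 was lower in KO, with a wide spread in both genotypes. It measured 6.28, 7.99 and 6.49 on the KO arrays, against 10.14, 8.38 and 7.69 on the WT arrays (log2). KO replicate 2 was above WT replicate 3, so the groups overlapped by 1 array on each side. The means were 6.92 ± 0.93 in KO and 8.74 ± 1.26 in WT (SD, n = 3 each), a difference of -1.82 ± 0.71 (SE), or 3.53-fold lower. Among the genes tested, 1 had a larger negative difference, Mir155hg. The KO mean of Mir155hg, 3.95, was below the dimmest gene tested (4.72), so it passed the filter only through its WT arrays (mean 7.50). The SD of Il2 within a genotype, 1.11 when pooled, was larger than that of 99.5% of the genes tested, against 88.3% for Il21 and 40.2% for Il21r. WT replicate 1 carried much of the difference, which was -1.12 without it and between -1.50 and -2.36 with any other array left out.

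Il21r, which encodes the receptor chain that binds IL-21, was slightly higher in KO. It measured 9.39, 9.40 and 9.54 on the KO arrays, against 8.81, 8.96 and 9.27 on the WT arrays (log2). The groups did not overlap, but the gap between the lowest KO and the highest WT array was only 0.12, less than the range of the WT arrays, 0.46. The means were 9.44 ± 0.09 in KO and 9.01 ± 0.24 in WT (SD, n = 3 each), a difference of 0.43 ± 0.15 (SE), or 1.35-fold. Of the genes tested, 642 had a larger positive difference. KO arrays lay wholly above WT arrays for Il21 and Il21r, as they did for 5.86% of all genes tested, and nothing is read from that count because the genes were picked on this comparison.

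**Figure D1:**
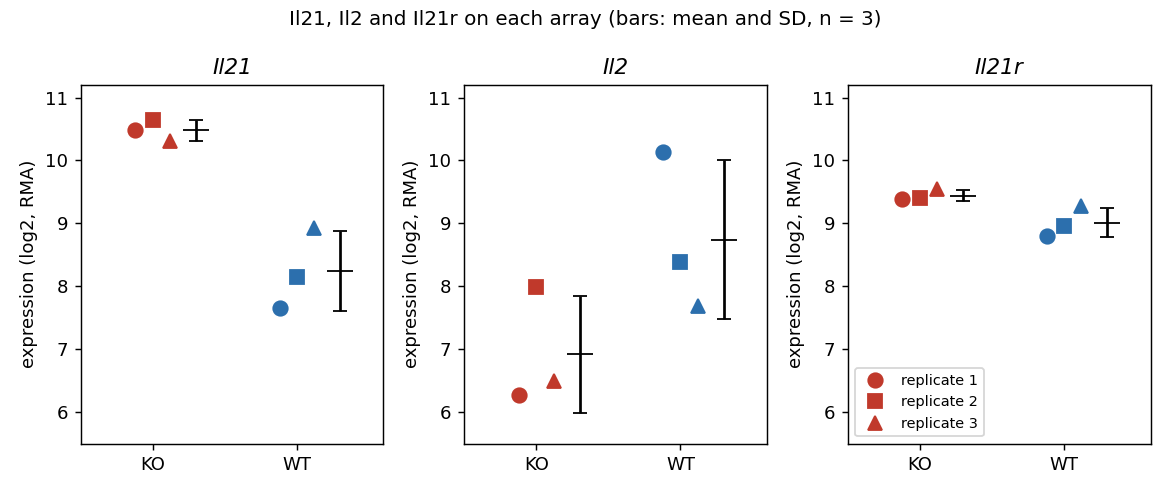
Log2 expression of Il21, Il2 and Il21r on each array, KO left of WT in each panel; marker shapes give the replicate number and the bars the mean and SD of 3 arrays. Il21 lies between 10.31 and 10.63 on the KO arrays, above all WT arrays, while Il2 spans 6.28 to 7.99 in KO and 7.69 to 10.14 in WT; levels of different genes come from different probes and are not comparable.

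**Figure D2:**
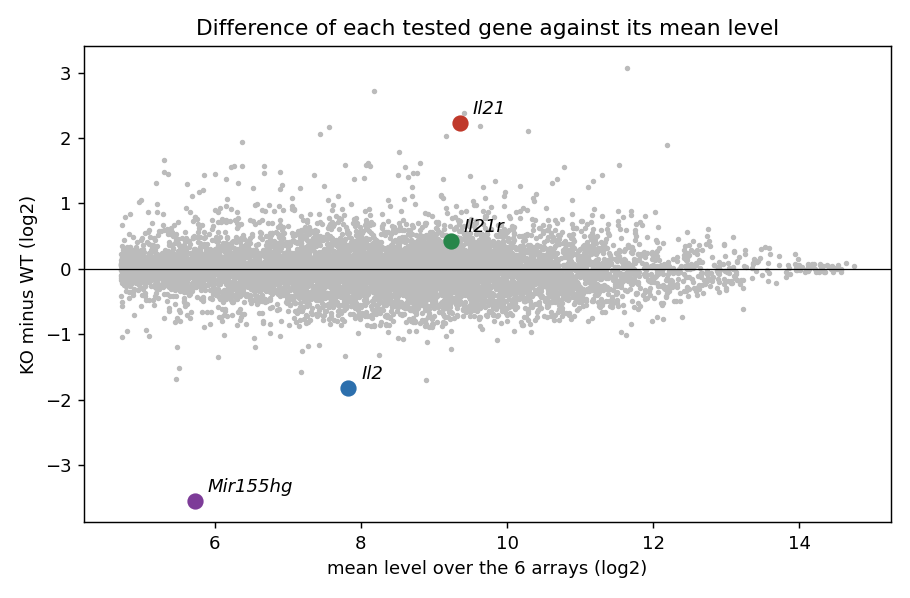
KO minus WT difference (log2, vertical) of each of the 9295 genes tested against its mean level over the 6 arrays (log2, horizontal). Il21 stands among the highest differences at 2.24 and Il2 among the lowest at -1.82, above only Mir155hg, while Il21r at 0.43 lies within the cloud.

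Among the WT arrays the order was the same in Il21 and Il21r and opposite in Il2, while the KO arrays had a different order in each gene. WT replicate 1 had the lowest Il21 and Il21r and the highest Il2 of all 6 arrays, and WT replicate 3 had the highest Il21 and Il21r and the lowest Il2 of the WT arrays. Relative to each gene's own mean over the 6 arrays, Il21 minus Il2 was 2.68, 1.11 and 2.29 on the KO arrays, against -4.02, -1.77 and -0.30 on the WT arrays. Il21 and Il2 lay on opposite sides of their means except on KO replicate 2 and WT replicate 3, where Il2 was on the side of Il21 (0.16 and -0.14). These sides largely restate the difference between the genotypes on which the genes were picked, so nothing is read from them. Among the KO arrays the 2 genes were not opposed at the top, as replicate 2 had the highest value of both (10.63 for Il21 and 7.99 for Il2). Between same-numbered arrays, which share their sex-linked transcripts, KO minus WT was 2.83, 2.49 and 1.39 for Il21, -3.86, -0.39 and -1.21 for Il2 and 0.58, 0.44 and 0.27 for Il21r.

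Il2 followed the main axis of variation between arrays. The first principal component of all genes tested, which held 61.9% of the variance, had scores of -41.3, 13.4 and -14.6 on the KO arrays, against 26.1, 23.8 and -7.36 on the WT arrays. Il2 put all 6 arrays in the same order as these scores, and Il21 and Il21r matched the order in 1 array each, WT replicate 3. The order was not particular to Il2, and its share over all genes tested was not counted. Exosc9, a neighbour of Il2 and Il21, had it too, as did Lad1, Tnfsf11 and Gart, given below among the genes most like Il2. Arrays of 1 genotype also differed along this axis, and its part in the difference of Il2 was not tested.

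Without both replicate 3 arrays the differences were 2.66 for Il21, -2.13 for Il2 and 0.51 for Il21r, so all 3 were at least as large without them.

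The tested neighbours of Il2 and Il21 differed less between the genotypes than either gene. Of the 8 protein-coding genes on each side in RefSeq, 8 were found on the array and 7 were tested, of which 1 was higher and 6 lower in KO, with a median of -0.23 (-0.42 without KO replicate 2). Adad1, a testis gene next to Il2, was at 3.25 in KO and 3.25 in WT, below the dimmest gene tested (4.72), and Cetn4, next to Il21, was not found in the platform annotation used here. Beyond Adad1, 4932438A13Rik measured 10.43, 10.17 and 10.05 on the KO arrays, against 9.50, 9.42 and 9.70 on the WT arrays, a difference of 0.68 ± 0.15 (SE). Its KO arrays lay above all WT arrays, as in 5.86% of all genes tested, but it did not pass limma over all genes (adjusted p = 0.631). The other 6 had no unadjusted p under 0.05. Ccna2, which encodes the cell cycle protein cyclin A2, was at -0.72, and at -0.20 without KO replicate 1.

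Around Il21r, 6 of the 10 nearest protein-coding genes were tested, 3 higher and 3 lower, with a median of -0.05 (-0.14 without KO replicate 2). Il4ra, next to it, measured 11.34, 10.68 and 10.80 on the KO arrays, against 10.57, 10.26 and 10.61 on the WT arrays, a difference of 0.46 ± 0.20 (SE, limma adjusted p = 0.631), and 0.26 without KO replicate 1. On the other side Gtf3c1, a subunit of a factor for RNA polymerase III, was at 0.07 (-0.00028 without KO replicate 3). Kdm8, farther off on the side of Il4ra, was at -0.41 (-0.23 without KO replicate 1).

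**Figure D3:**
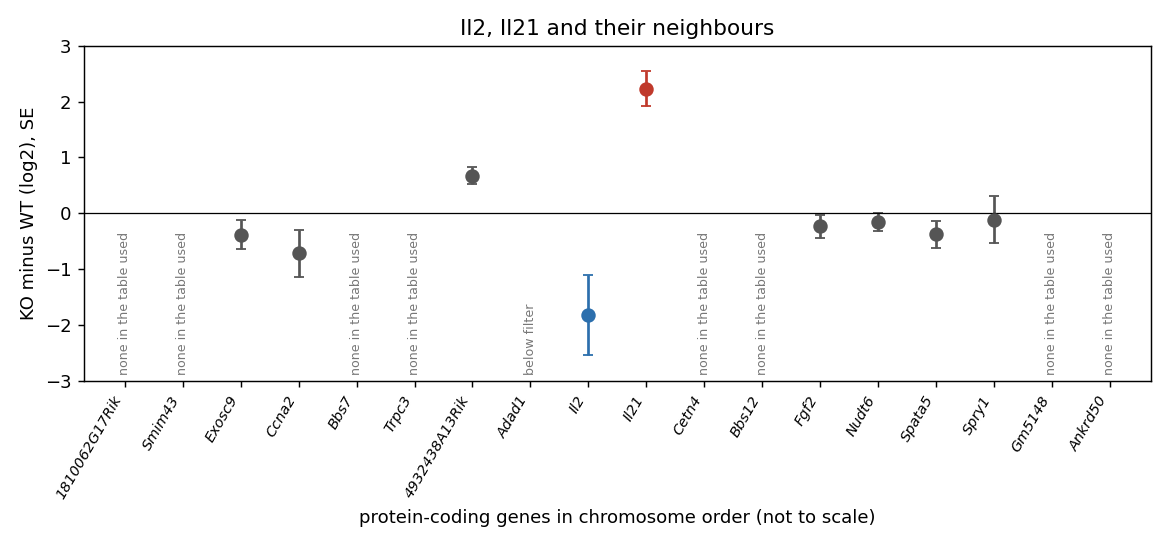
KO minus WT difference (log2, with SE) of Il2, Il21 and the 8 protein-coding genes on each side, in chromosome order and not to scale; genes with no value are marked. Il2 at -1.82 and Il21 at 2.24 lie outside the range of the tested neighbours, -0.72 to 0.68.

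Genes with profiles most like each of the 3 were sought by the root mean square difference between profiles, each centred on its own mean, over the 6 arrays. For Il21 these were Ffar2, a receptor for short-chain fatty acids (0.35 log2 units from Il21), the homeobox factor gene Hhex (0.39), the matrix protein gene Ecm1 (0.46), the monoacylglycerol lipase gene Mgll (0.49) and the glycerol channel gene Aqp9 (0.51). Ffar2 measured 9.01, 8.85 and 8.87 on the KO arrays, against 6.61, 7.47 and 7.78 on the WT arrays. All 5 were higher in KO, by 1.38 to 2.17, a direction that their choice by likeness to Il21 sets. Each of the 5 had its highest value on KO replicate 1, whereas Il21 had it on KO replicate 2.

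Il2 had Lad1, Tnfsf11, Mlf1, Gart and Nolc1 as its closest genes, at 0.39, 0.40, 0.55, 0.56 and 0.60 log2 units. Tnfsf11, which encodes the cytokine RANKL, measured 5.82, 7.21 and 6.14 on the KO arrays, against 8.67, 8.14 and 7.08 on the WT arrays, with KO replicate 2 above WT replicate 3 as for Il2. Lad1, Gart, an enzyme of purine synthesis, and Nolc1, a nucleolar protein, shared this pattern of KO replicate 2 above WT replicate 3. Mlf1 did not, with KO replicate 2 at 5.03 and WT replicate 3 at 5.33. All 5 were lower in KO, with differences of -0.92 to -1.69, a direction that their choice by likeness to Il2 sets. The -1.69 was that of Mlf1, whose KO mean of 4.62 was below the dimmest gene tested (4.72). Mlf1 thus passed the filter only through its WT arrays (mean 6.32). Gart was at -1.07 (-0.64 without KO replicate 1 and -1.66 without KO replicate 2) and Lad1 at -1.36 (-0.77 without WT replicate 1). Nolc1 was at -0.92, and at -0.41 without KO replicate 1, -0.53 without WT replicate 1, -1.40 without WT replicate 3 and -1.49 without KO replicate 2.

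Il21r lay closest to Jak2, a cytokine receptor kinase, at 0.03 log2 units, and then to Cacul1 (0.04), the chromatin organiser gene Satb1 (0.05), the protease gene Bace2 (0.05) and Ccser2 (0.06). Jak2 measured 11.96, 11.96 and 12.05 on the KO arrays, against 11.40, 11.54 and 11.88 on the WT arrays. The Il21r profile was flat, departing from its mean by 0.26 (root mean square), against 1.18 for Il21 and 1.29 for Il2, and distances are to be read against these sizes. By the same measure Il21 and Il2 were 2.35 apart, and 9290 of the other tested genes were closer to Il21 than Il2 was.

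**Figure D4:**
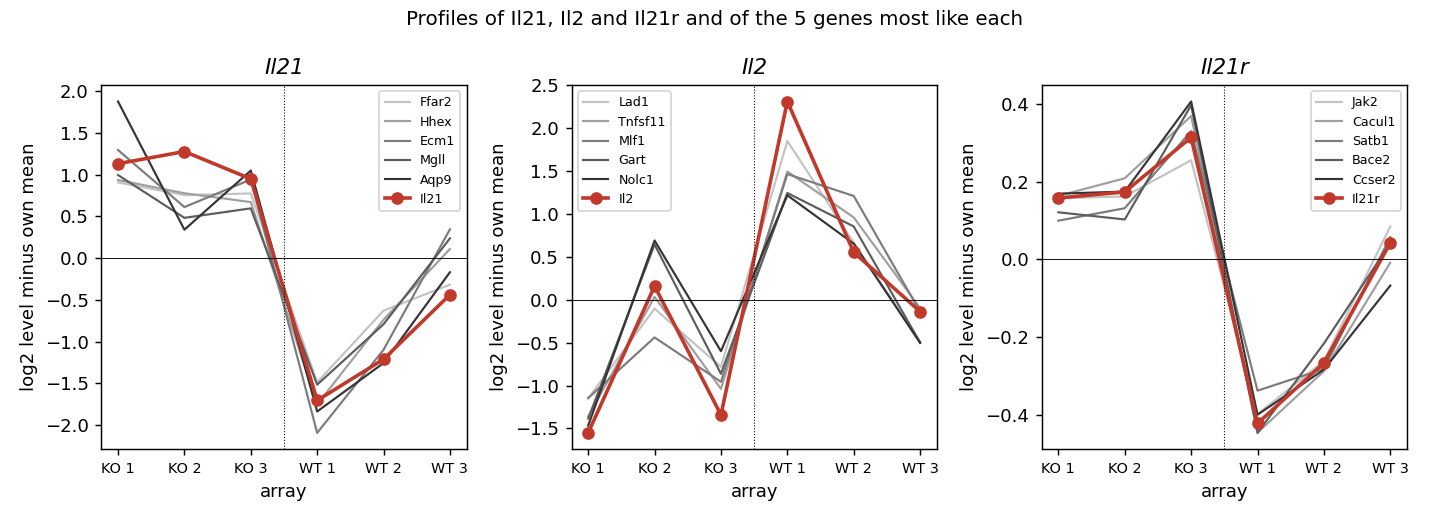
Log2 level of Il21, Il2 and Il21r (red) and of the 5 genes most like each (grey) on each array, minus the gene's own mean; lines only join the points of a gene, KO arrays lie left of the dotted line, and the vertical scales differ. Il2 and its closest genes have KO replicate 2 above the other KO arrays, while the closest genes of Il21 are highest on KO replicate 1.

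Transcripts of the pathways around the 3 genes were then counted. Over all 9295 genes limma called 0 at an adjusted p under 0.05 (the smallest was 0.545), so no gene below passed the test. At an unadjusted p under 0.05 it gave 332 genes higher in KO (3.57%) and 359 lower (3.86%). Of 81 pathway genes in 11 lists, 65 were tested, of which 0 passed and 10 were higher and 6 lower at that unadjusted level (16 in all, against 7 without KO replicate 3, 9 without KO replicate 1 and 10 without WT replicate 1), with a median difference of 0.23 against -0.0036 over all genes tested. A difference above 0, whether or not past a test, was found in 49.2% of all genes tested.

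Among 8 factors known to act on Il21, 4 were higher and 4 lower, with a median of 0.11 (0.04 without KO replicate 3 and 0.06 without KO replicate 1). Batf, an AP-1 family factor, measured 11.85, 11.30 and 11.40 on the KO arrays, against 10.49, 10.61 and 11.29 on the WT arrays, a difference of 0.72 ± 0.25 (SE). Bcl6, the repressor that defines follicular helper cells, measured 8.55, 8.27 and 8.95 on the KO arrays, against 5.65, 7.69 and 7.63 on the WT arrays, a difference of 1.59 ± 0.55 (SE), but 0.93 without WT replicate 1, and 0.61 in its other probe set. These were the 2 members with an unadjusted limma p under 0.05, and without KO replicate 1 there were 0. In the follicular helper list, Bcl6 was the 1 such member of 8 tested, 5 members were lower, and Sh2d1a, an adaptor protein gene of T cell to B cell contact, was at -0.72 (-0.47 without KO replicate 2 and -1.13 without KO replicate 1).

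Genes of the IL-21 receptor pathway were mostly higher in KO, none past the test. Beside Il21r itself, the partners tested were Jak3, at 0.44 ± 0.25 (SE; 0.21 without WT replicate 1 and 0.67 without WT replicate 3), Jak1, at 0.26 ± 0.16 (0.13 without WT replicate 1), and Stat3, at 0.39 (0.04 without KO replicate 1, 0.25 without WT replicate 1 and 0.64 without KO replicate 2), none of them with an unadjusted p under 0.05. Of 9 genes known to be induced through IL-21 and STAT3, 8 were higher and 1 lower, with a median of 0.88. With 1 array left out the median was between 0.71 (without WT replicate 1) and 1.37 (without KO replicate 2). It was 0.83 without KO replicate 3 and 1.36 without WT replicate 3. In 7 of them the KO arrays lay above all WT arrays, as they did for 5.86% of all genes tested. An unadjusted p under 0.05 was reached by 5, all higher, against 3.57% of all genes, and this count was between 2 (without KO replicate 3) and 5 with 1 array left out.

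Prdm1, which encodes the differentiation factor Blimp-1, measured 8.68, 7.51 and 8.03 on the KO arrays, against 6.15, 6.48 and 7.27 on the WT arrays, a difference of 1.44 ± 0.38 (SE). Prf1, the perforin gene, measured 7.73, 7.15 and 7.78 on the KO arrays, against 5.93, 6.09 and 6.82 on the WT arrays, a difference of 1.27 ± 0.28 (SE), though its other probe set differed by 0.06. The KO arrays lay above all WT arrays in both genes, as in 5.86% of all genes tested, and both were named for the smallest p of their list. The others were Socs3, a feedback inhibitor, at 1.26, Bcl3 at 0.88 (0.56 without WT replicate 1) and Bcl6, and the 1 lower member was Socs1 at -0.06, which was at 0.05 without KO replicate 1, at 0.08 without KO replicate 3 and at 0.04 without WT replicate 1 (Socs3, Bcl3 and Socs1 were chosen after their values were seen).

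On the Il2 side, 12 of 14 factors known to act on its promoter were higher, with a median of 0.22, but 8 of 14 without WT replicate 1, with a median of 0.04. Jun, an AP-1 subunit, measured 9.29, 9.08 and 9.0 on the KO arrays, against 7.45, 8.37 and 8.35 on the WT arrays, a difference of 1.06 ± 0.26 (SE), and Junb was at 0.39 ± 0.14. These were the 2 members with an unadjusted p under 0.05. The NFAT genes Nfatc1, Nfatc2 and Nfatc3 were at -0.27, -0.05 and 0.23, within the spread between arrays (genes named after their values were seen), and without KO replicate 1 Nfatc1 was at 0.23. Of 5 factors known to hold Il2 down all were higher, with a median of 0.42 (0.17 without KO replicate 1). Prdm1, given above, was the 1 with an unadjusted p under 0.05, and Zeb1 was at 0.42 ± 0.24 (SE; 0.17 without KO replicate 1).

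The IL-2 receptor genes and their kinases and STATs were higher in 6 of 6 tested (5 of 6 when WT replicate 3, or either of KO replicates 1 and 2, was left out), with a median of 0.29 (0.17 without WT replicate 1) and 0 with an unadjusted p under 0.05. The chain gene Il2ra was at 0.10, and at -0.03 without KO replicate 2, and Il2rb was at 0.27, and at -0.10 without KO replicate 1. Of 8 genes known to be induced through IL-2 and STAT5, 4 were higher and 4 lower, with a median of -0.07 (0.01 without KO replicate 1, 0.02 without KO replicate 3 and 0.04 without WT replicate 1). An unadjusted p under 0.05 was reached by 1 in each direction. The lower one was the cytokine gene Lta, at -1.70, the member with the largest difference, whose values are given with the helper cytokines, and the growth regulator gene Myc was at -0.40. Pim1, a kinase gene, measured 11.54, 11.50 and 11.70 on the KO arrays, against 10.87, 10.86 and 11.26 on the WT arrays, a difference of 0.59 ± 0.15 (SE). Cish, a feedback inhibitor, was at 0.25 (Il2ra, Il2rb, Myc and Cish were chosen after their values were seen).

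Other cytokine genes fell on both sides. Of 12 tested genes of helper T cell cytokines, 5 were higher and 7 lower, with a median of -0.34 that was -0.016 without WT replicate 1. An unadjusted p under 0.05 was reached by 5, all lower, against 3.86% of all genes, and the count was 2 without KO replicate 1 or KO replicate 3, and 3 without WT replicate 1 or WT replicate 2. Lta, the lymphotoxin alpha gene, measured 8.70, 7.62 and 7.82 on the KO arrays, against 10.53, 9.18 and 9.53 on the WT arrays, a difference of -1.70 ± 0.42 (SE). Tnf measured 7.41, 7.64 and 7.71 on the KO arrays, against 8.43, 7.99 and 8.04 on the WT arrays, a difference of -0.57 ± 0.16 (SE). In both genes the KO arrays lay below all WT arrays, as in 6.92% of all genes tested. The others were Tnfsf11 at -1.57, Ifng, the interferon gamma gene, at -1.17 and Il3 at -0.94 (-0.53 without WT replicate 1). Ifng and Il3 were chosen after their values were seen. The KO mean of Il3, 4.59, was below the dimmest gene tested, so Il3 passed the filter only through its WT arrays (mean 5.52). Its place among the 5 is therefore not read as a result.

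Within the common gamma chain family, the cytokine gene Il9 measured 5.02, 4.90 and 4.75 on the KO arrays, against 7.29, 5.24 and 5.72 on the WT arrays, a difference of -1.20 ± 0.50 (SE), and -0.60 without WT replicate 1. Its KO mean, 4.89, was close to the level of the dimmest gene tested (4.72). Il4 was at 0.24 ± 0.45 (SE), which was -0.19 without WT replicate 2 and -0.11 without KO replicate 1. Of 5 receptor chains of the family tested, 4 were higher, with a median of 0.27 (0.52 without KO replicate 2). Il2ra and Il2rb, counted above with the IL-2 receptor genes, were among them, and the median was the value of Il2rb. When WT replicate 3, or either of KO replicates 1 and 2, was left out, 3 were higher. Il7r, the IL-7 receptor gene, measured 12.48, 10.91 and 12.16 on the KO arrays, against 10.02, 10.20 and 11.29 on the WT arrays, a difference of 1.34 ± 0.49 (SE), with KO replicate 2 below WT replicate 3.

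**Figure D5:**
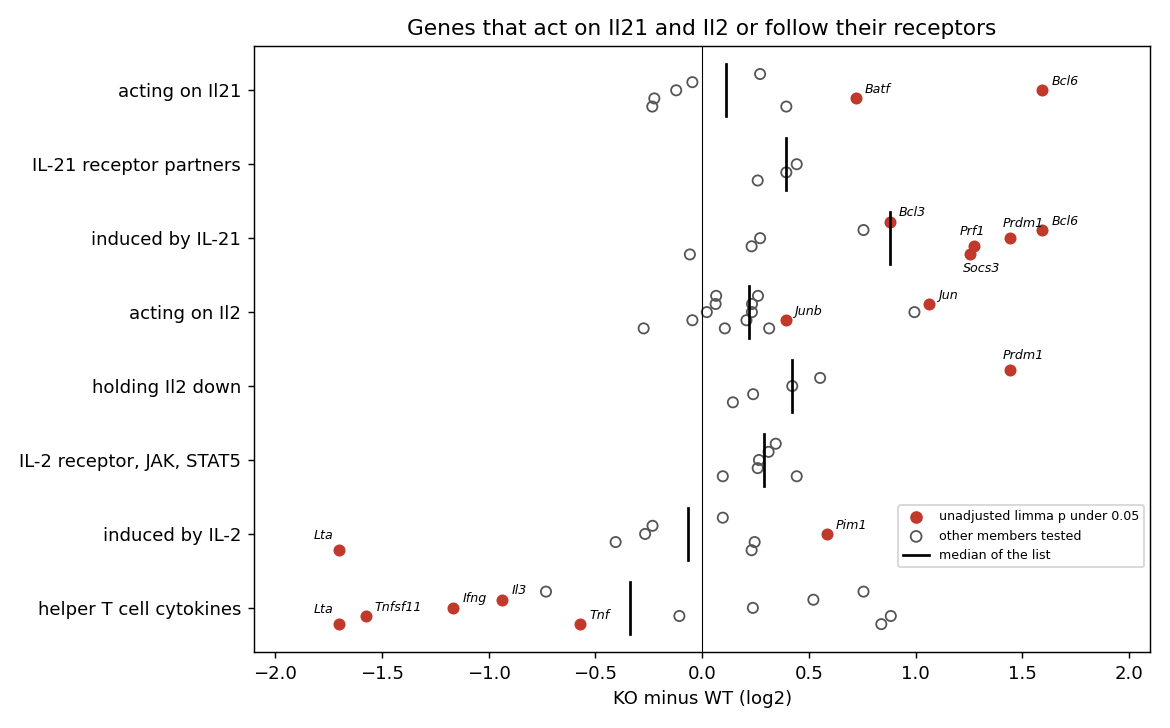
KO minus WT difference (log2) of the tested members of 8 gene lists, 1 point per gene; filled points have an unadjusted limma p under 0.05, none has an adjusted p under 0.05, and bars are list medians. The filled points of the IL-21 induced list lie between 0.88 and 1.59, and those of the helper cytokine list between -1.70 and -0.57.

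Markers of other cells were set beside these values, since B cells also carry Il21r and other lymphocytes can make IL-21. In bulk RNA, fewer cells of a type and less RNA per cell cannot be told apart. The 6 B cell markers on the array had a log2 summed level between 8.80 and 9.38 on the KO arrays and between 8.69 and 9.60 on the WT arrays, and Pax5 was at 4.47 in KO and 4.57 in WT, below the dimmest gene tested. For the 4 NK markers the sums were 7.51 to 7.56 in KO and 7.05 to 7.86 in WT, with Ncr1 at 3.84 in KO and 3.92 in WT. The sums overlapped between genotypes in both lists. The CD4 T cell markers had sums of 14.66 to 14.82 in KO and 14.17 to 14.72 in WT. Of 7 tested, 6 were higher in KO, against 49.2% of all genes tested. An unadjusted p under 0.05 was reached by 2, both higher, against 3.57% of all genes (Cd28 at 0.67 and Zbtb7b at 0.48, named after their values were seen). Without WT replicate 1, 3 of 7 were higher, with Cd28 at 0.42 and Zbtb7b at 0.29. No member had an unadjusted p under 0.05 when WT replicate 1, or either of KO replicates 1 and 3, was left out. The lowest sum was that of WT replicate 1, the array with the lowest Il21 and Il21r, and its part in those differences was not tested. The CD8 markers had sums of 7.79 to 8.14 in KO and 7.71 to 7.99 in WT. Macrophage markers had sums of 7.75 to 8.21 in KO and 7.55 to 8.01 in WT, dendritic cell markers of 6.86 to 7.04 in KO and 6.74 to 6.97 in WT, and erythroid markers of 7.50 to 8.38 in KO and 7.65 to 7.85 in WT. All 5 neutrophil markers were below the dimmest gene tested.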

How the data were processed

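Affymetrix arrays of 3 KO and 3 WT samples were used. The authors deposited log2 values, for which the submitters' processing notes name RMA and affy without their versions. RMA corrects background, brings arrays to a common distribution and summarises probe sets, which compresses differences of dim genes. Probe sets were named through GEO's platform annotation, in which 20393 had 1 symbol, 691 several and 1606 none. Of the 12393 genes, 12369 matched a RefSeq table of assembly GRCm38.p6 by gene number, used for names and neighbours.

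The probe set with the highest mean stood for a gene, and the lowest 25% of genes were left out, leaving 9295. KO was compared with WT in limma 3.58.1 (R 4.3.3; lmFit, eBayes, two-sided, Benjamini-Hochberg over the 9295, adjusted p under 0.05). The code was tested on simulated data. No p is given for Il21, Il2 and Il21r. The members, the lists and the naming rule were chosen with earlier results of these data known. That rule took the 3 genes, the 5 genes most like each, up to 4 members of each list past the test or else the 2 with the smallest p, the genes next to the 3, and Mir155hg. Further probe sets were checked for 47 genes, those under the rule and the other tested neighbours, Mir155hg and the untested Adad1 aside. Of these, 22 had further probe sets, and 2 (Nsmce1 and Zeb1) had 1 of opposite sign. Stat3, Socs3, Il2ra and other genes named outside the rule were not part of that check. Promoter windows and the microRNA came from RefSeq tables. Deviations of same-numbered arrays from their group means correlated at -0.04, 0.64 and 0.40 for replicates 1, 2 and 3. With 3 arrays per group these correlations decide little. The numbers were not taken as pairs in the main fit, although same-numbered arrays share their sex-linked transcripts. A fit with the number as a block is given below.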

Additional observations from a re-analysis of the deposited data

How the results depend on the processing

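Il21, Il2 and Il21r kept their direction under every alternative run. With 1 array left out the difference was between 1.94 and 2.58 for Il21, between -2.36 and -1.12 for Il2 and between 0.33 and 0.56 for Il21r, the value nearest 0 being without WT replicate 1 for each. Median centring, a further quantile normalization, the mean of all probe sets and array weights gave 2.18 to 2.24, -1.90 to -1.81 and 0.43 to 0.55. With the replicate number as a block the differences were the same by construction (2.24, -1.82 and 0.43), limma called 0 genes adjusted and 918 unadjusted, 21 of the 65 pathway genes had an unadjusted p under 0.05 (16 without the block), and no adjusted call changed. KO replicate 1 correlated best with WT replicate 3 and not with its own number. The count of 0 genes at an adjusted p under 0.05 (691 unadjusted) held under every filter, normalization, eBayes setting, threshold and array left out, with 276 (without WT replicate 1) to 1542 (without KO replicate 2) unadjusted. Array weights alone gave a different count, 3575 genes, by weighting KO replicate 3 and WT replicate 2 at 5.55 and 5.04 and the other arrays at 0.27 to 0.58, so that this fit rests largely on 1 array of each genotype. The list counts at an adjusted p under 0.05 stayed at 0 with the block, with each array left out and with the mean of probe sets. Leaving out both replicate 3 arrays was added after the data had been seen. Signal over background was not available, so the limit that dimness sets on Il2 in KO could not be given.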
